A study of Mus musculus with 4 samples.

Results

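The 40 genes described here drive and police mitosis. They code for CDK1 with its cyclins and activating phosphatases, the mitotic kinases, the spindle checkpoint, the kinetochore, the kinesin motors and the machinery of cytokinesis. They were taken by gene symbol from the deposited table of transcript levels, where each of the 40 symbols had 1 row among 54446 rows. The samples were satellite cells, which are the resident stem cells of muscle fibres, grown from hindlimb of C57BL/6 mice. Of the 4 samples, 2 received siRNA targeting LncMyod (knockdown replicates 1 and 2) and 2 received control siRNA (control replicates 1 and 2), and all were harvested at 48 h. All groups shared the strain, the F10 medium with HS and the siRNA handling. The treatment protocol of the control samples carries the knockdown wording, so the groups rest on titles, descriptions and treatment tags.

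In a dividing cell, CDK1 bound to cyclins A and B starts mitosis, and the CDC25 phosphatases switch it on. Aurora and Polo-like kinases then build the spindle, kinetochores attach chromosomes to it, and the checkpoint proteins hold the anaphase-promoting complex (APC/C) with its activator CDC20 in check until all are attached. Satellite cells divide after activation and leave the cell cycle when they differentiate. Transcripts of these genes accumulate in G2 and mitosis and are low in cells that have left the cycle.

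The libraries were alike in depth. Levels are in FPKM, a fragment count scaled by transcript length and library size, and at 1 FPKM a 1 kb transcript was covered by 36.7 to 41.1 reads of 150 nt. Genes at 1 FPKM or more numbered 10751 to 11090 per library. Among muscle markers, Myod1 stood at 583 to 698 FPKM and Myog, a factor of differentiating myoblasts, at 2793 to 4196, while Pax7, the marker of quiescent satellite cells, was at 0.625 to 1.40. Ptprc, Adgre1 and Itgam, markers of blood and macrophage lineages, were listed at 0 in all 4 libraries. Pecam1, Sox10 and Pdgfra were at 0.176 FPKM or less. Some other markers of such cell types were present. Among fibro-adipogenic markers, Islr stood at 30.6 to 58.5, Col3a1 at 23.05 to 29.35 and Col1a1 at 2.18 to 4.70 FPKM. The endothelial marker Tek stood at 0.801 to 2.45 and the macrophage marker Cd68 at 0.271 to 1.07 FPKM. In the same lists, the fibro-adipogenic Ly6a, Lum and Dcn were at 0.3425 FPKM or less. The endothelial Kdr, Cdh5, Flt1 and Emcn were at 0.08829 or less, and the macrophage markers Csf1r and Lyz2 at 0.6129 or less. These levels do not show that other cell types were absent. Rows named for LncMyod numbered 0, so the targeted transcript itself was not analysed here. Because RNA came from whole cultures, fewer cells in mitosis and less RNA per mitotic cell cannot be told apart.

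Promoter letters were examined first, since many genes of this class share 2 short elements near their start. One is CCAAT, read by the factor NF-Y. The other, the cell cycle genes homology region or CHR, is TTTGAA or a close variant, read by the DREAM complex in resting cells and by B-MYB and FOXM1 with the MuvB core in dividing cells. RefSeq promoters on GRCm38.p6, 250 bases before to 50 bases after each annotated start, matched 32 of the 40 genes. The genes with no match were Ccna2, Cdc25c, Foxm1, Tpx2, Aurkb, Incenp, Spc24 and Kif20a. The 6 stretches below hold the 250 bases before the start and the first 30 bases from it on, 5′ to 3′ along the gene. They show a gene at a near-constant high level (Cdc20), the most abundant cyclin (Ccnb2), and 4 genes with an unadjusted p under 0.05 in the comparison below (Top2a, Kif11, Anln and Bub1b), chosen after their values were seen. Capitals mark CCAAT and the CHR letters, which are TTTGAA or TTCGAA and, as a looser form, TTTAAA. Both strands were searched, so capitals can read as the reverse complement.
Ccnb2, chr9:70421525-70421804, minus strand: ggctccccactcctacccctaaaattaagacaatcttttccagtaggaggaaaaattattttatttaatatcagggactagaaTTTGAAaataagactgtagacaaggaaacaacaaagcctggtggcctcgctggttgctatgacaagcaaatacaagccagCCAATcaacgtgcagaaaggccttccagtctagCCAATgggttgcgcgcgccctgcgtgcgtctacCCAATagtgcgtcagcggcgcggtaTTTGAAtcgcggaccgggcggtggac
Cdc20, chr4:118437314-118437593, minus strand: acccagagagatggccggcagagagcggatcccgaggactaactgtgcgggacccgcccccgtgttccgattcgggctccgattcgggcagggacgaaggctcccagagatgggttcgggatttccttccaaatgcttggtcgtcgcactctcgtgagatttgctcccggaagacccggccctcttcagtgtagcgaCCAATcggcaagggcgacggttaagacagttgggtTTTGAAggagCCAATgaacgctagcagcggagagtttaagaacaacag
Top2a, chr11:99024160-99024439, minus strand: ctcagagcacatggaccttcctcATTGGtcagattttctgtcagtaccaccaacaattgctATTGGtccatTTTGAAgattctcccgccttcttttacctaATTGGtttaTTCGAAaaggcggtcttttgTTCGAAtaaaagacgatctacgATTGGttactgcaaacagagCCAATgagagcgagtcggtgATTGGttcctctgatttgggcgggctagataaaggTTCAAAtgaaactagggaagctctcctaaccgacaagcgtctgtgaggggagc
Kif11, chr19:37376132-37376411, plus strand: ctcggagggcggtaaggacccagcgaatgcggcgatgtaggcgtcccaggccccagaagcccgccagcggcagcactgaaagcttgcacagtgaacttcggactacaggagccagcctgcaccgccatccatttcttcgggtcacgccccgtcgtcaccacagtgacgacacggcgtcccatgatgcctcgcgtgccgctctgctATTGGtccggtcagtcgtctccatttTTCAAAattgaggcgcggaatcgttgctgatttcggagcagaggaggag
Anln, chr9:22389177-22389456, minus strand: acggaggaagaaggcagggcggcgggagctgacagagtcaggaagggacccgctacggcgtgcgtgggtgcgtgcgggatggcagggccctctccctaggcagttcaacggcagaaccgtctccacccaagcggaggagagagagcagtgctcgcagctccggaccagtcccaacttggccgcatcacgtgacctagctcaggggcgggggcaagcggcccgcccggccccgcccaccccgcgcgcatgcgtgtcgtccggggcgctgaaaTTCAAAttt
Bub1b, chr2:118597961-118598240, plus strand: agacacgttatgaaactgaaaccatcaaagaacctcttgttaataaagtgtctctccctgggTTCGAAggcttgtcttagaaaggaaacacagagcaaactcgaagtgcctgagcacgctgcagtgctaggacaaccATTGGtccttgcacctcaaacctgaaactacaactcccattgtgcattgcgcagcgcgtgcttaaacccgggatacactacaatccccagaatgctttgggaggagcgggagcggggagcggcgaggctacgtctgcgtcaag

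Ccnb2 has CCAAT starting 87, 54 and 21 bases before the start, a spacing of 33 bases each, and TTTGAA 4 bases after it. Cdc20 has CCAAT at 53 and 8 bases before the start, with TTTGAA between them at 18. In Top2a there were 6 matches to CCAAT and 4 to the CHR letters. Kif11 has 1 of each, at 45 and 19 bases before the start. Anln has 0 matches to CCAAT, and its CHR letters begin 21 and 28 bases after the start, the later of them running past the printed stretch. Bub1b has a CCAAT match 113 bases before the start and CHR letters 188 bases before and 40 bases after it.

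Of the 32 matched genes, 25 (78.1%) held CCAAT on either strand in any of their listed promoters, against 43.9% of 7609 matched genes among all those tested. TTTGAA or TTCGAA was found in 26 (81.2%), against 16.3%, and with TTTAAA added in 29 (90.6%), against 24.5%. Both CCAAT and TTTGAA or TTCGAA were present in 22 (68.8%), against 6.99%. TTTGAA or TTCGAA was found in 50.6% of 81 other mitotic genes and in 18.4% of 38 DNA replication and G1/S genes, and CCAAT in 59.3% and 65.8%. These shares describe letters in a window, were not tested, and say nothing about binding in these cells.

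**Figure D1:**
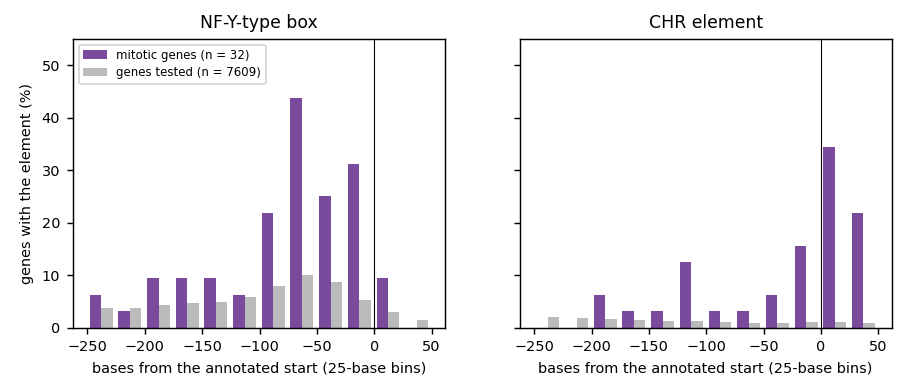
Share of genes (vertical axis, percent) with an NF-Y-type box (left) or a CHR element (right, without the AT-only form) in 25-base bins of distance from the annotated start (horizontal axis, bases), for the 32 mitotic genes (purple) and 7609 genes tested (grey), with the first listed promoter of each gene. The box is most frequent from 75 to 51 bases before the start (43.8% against 9.98%), and the CHR element from the start to 24 bases after it (34.4% against 1.01%).

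Within 50 bases of the start on either side, 24 of 32 mitotic genes (75.0%) held TTTGAA or TTCGAA, against 3.57% of the genes tested. From -100 to -1 relative to the start, 23 of 32 (71.9%) held CCAAT, against 24.6%. The plot of elements by distance shows that the most frequent bin of the CHR letters lies downstream of that of CCAAT.

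The comparison of knockdown with control asked whether this programme differed when LncMyod was targeted. The 40 genes summed to 1271 and 1299 FPKM in the knockdown libraries against 1292 and 1279 in the controls, so that the groups overlapped. The means were 1285 ± 19.9 and 1286 ± 9.10 FPKM (SD, n = 2). Within that total, the genes with an unadjusted p under 0.05 were Kif4, Ect2, Top2a, Anln, Cdc25b, Cdc25c and Kif11, higher in both knockdown libraries, and Bub1b and the low-level Foxm1, lower in both. By limma with Benjamini-Hochberg adjustment, 0 of 40 passed an adjusted p of 0.05, where 6 of 10900 genes tested (0.055%) did. The adjusted p-values of the 40 ran from 0.566 to 0.997. On data simulated for all genes tested, not for the 40 alone, the same fit recovered 7% of 1.5-fold and 42.4% of 2-fold changes. The absence of calls therefore does not show that changes of such size were absent.

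Each of the 40 genes averaged 1 FPKM or more and entered the test. At an unadjusted p under 0.05 there were 9 (22.5%), against 7.08% of all genes tested. These were 7 higher (17.5%, against 4.39%) and 2 lower (5%, against 2.7%). One of the 2 lower, Foxm1, averaged under 1 FPKM in the knockdown libraries and entered the test through its control values, so Bub1b alone is left for the lower direction. Both knockdown libraries lay above both controls in 13 genes (32.5%, against 22.1%) and below in 10 (25%, against 16.3%). The median log2 fold change, knockdown minus control of FPKM + 1, was 0.0081 over the 40 genes and 0.026 over all genes tested. The 40 genes were measured more tightly than most, with a median standard error of 0.144 against 0.198, and their median level was 20.5 FPKM against 7.02, which bears on any comparison of those shares. The count of 9 was 2 without control replicate 1, where 3.72% of all genes passed, and 6 without control replicate 2, where 4.83% did.

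**Figure D2:**
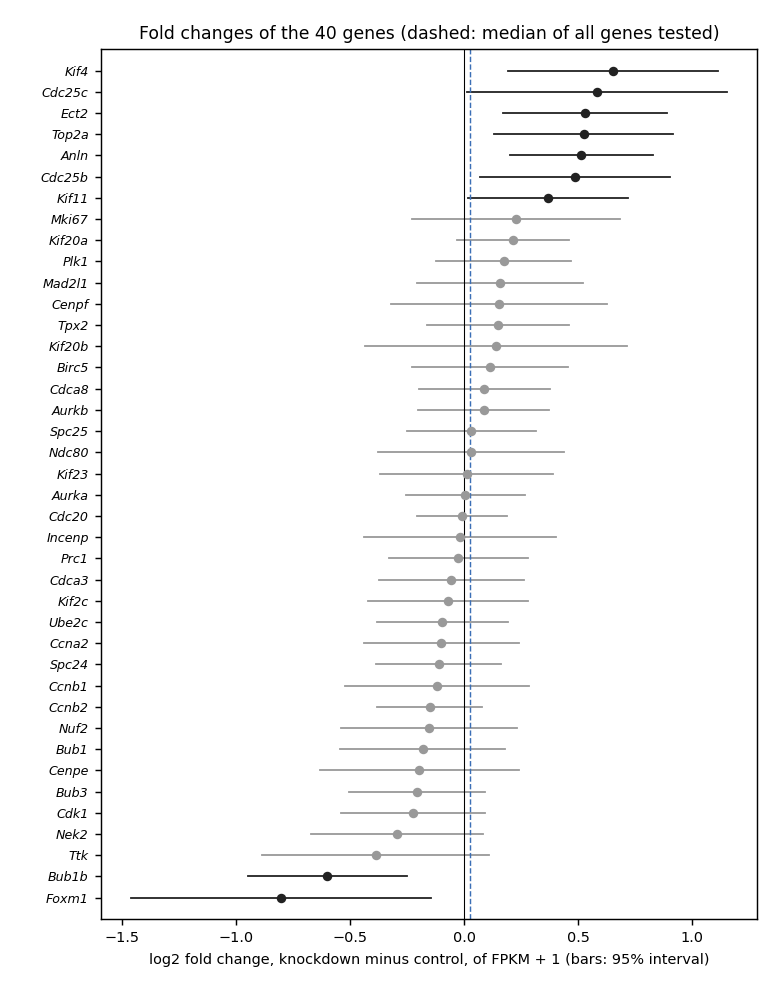
Log2 fold change of each of the 40 genes (horizontal axis, knockdown minus control of FPKM + 1; points, with bars for the 95% interval by limma), ordered by size; black marks an unadjusted p under 0.05 and the dashed line the median of all genes tested. The 7 black points on the right run from Kif11 (0.37) to Kif4 (0.65), and the 2 on the left are Bub1b (-0.60) and Foxm1 (-0.80).

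CDK1, the kinase that triggers mitosis, had 27.9 and 31.2 FPKM in the knockdown libraries against 37.0 and 32.5 in the controls. Both knockdown values for Cdk1 lay below both controls, with a log2 fold change of -0.22 and a 95% interval of -0.54 to 0.09. Its partner Ccnb2, cyclin B2, was the most abundant cyclin of the list, at 152 and 141 against 156 and 170 FPKM. The groups did not overlap for Ccnb2, whose log2 fold change was -0.15 (interval -0.38 to 0.08), and it is the 1 gene of the list with 1 annotated transcript. Cyclin B1 (Ccnb1) had 60.8 and 56.7 against 75.0 and 54.2 FPKM, and cyclin A2 (Ccna2) had 48.6 and 62.2 against 59.2 and 58.9. Both overlapped between groups, and Ccnb2 was 2.08 to 3.13 times Ccnb1 per length in the 4 libraries.

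The phosphatases that activate CDK1 stood on the other side. Cdc25b, which acts on cyclin-CDK complexes at the entry into mitosis, had 9.33 and 7.92 FPKM in the knockdown libraries against 5.82 and 5.90 in the controls. Its log2 fold change was 0.49 ± 0.17 (SE), with a limma adjusted p of 0.657. Cdc25c had 13.4 and 9.74 against 6.05 and 8.76 FPKM, a log2 fold change of 0.58 ± 0.23 (SE) with a limma adjusted p of 0.692. Knockdown lay above control in both genes, but the margin for Cdc25c was narrow between knockdown replicate 2 and control replicate 2, and its fold change ranged from 0.35 to 0.82 with 1 library left out.

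Foxm1, the forkhead factor that activates many G2 and mitosis genes, was the lowest of the 40, at 0.407 and 0.745 FPKM in the knockdown libraries against 2.23 and 1.31 in the controls. Its mean of 0.576 FPKM in knockdown was below the filter of 1, so it entered the test through its control values. The log2 fold change was -0.80 ± 0.27 (SE), with a limma adjusted p of 0.645, and -1.04 to -0.56 with 1 library left out. It was -1.47 with a pseudocount of 0.1 in place of 1, and -1.20 when rescaled to TPM. The value rested on few reads, about 7 to 69 in knockdown replicate 1 if assigned to its shortest or its longest annotated transcript, and 40 to 406 in control replicate 1.

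Among the spindle and centrosome kinases, Plk1, the Polo-like kinase, was the most abundant, at 68.6 and 80.9 FPKM in the knockdown libraries against 62.7 and 69.3 in the controls. Aurka, the Aurora kinase of spindle poles, had 49.2 and 50.9 against 52.2 and 47.6 FPKM. Its log2 fold change was 0.0055 with an interval of -0.26 to 0.27. Tpx2, the activator and spindle targeting factor of Aurora A, had 52.2 and 43.4 against 42.0 and 43.7 FPKM and overlapped between groups. Nek2, a centrosome kinase, had 20.3 and 23.7 against 30.01 and 24.5 FPKM, lower in both knockdown libraries, with a log2 fold change of -0.30 (limma adjusted p 0.721).

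The chromosomal passenger complex corrects wrong attachments and later marks the midzone. Its kinase Aurkb had 26.7 and 25.5 FPKM in the knockdown libraries against 25.1 and 23.96 in the controls, and its scaffold Incenp had 16.4 and 22.1 against 20.1 and 18.6. Survivin (Birc5) had 40.7 and 51.4 against 41.4 and 43.0 FPKM, and borealin (Cdca8) had 29.8 and 33.0 against 29.7 and 29.2. The 4 subunits kept 1 order in all 4 libraries, with Birc5 above Cdca8, Aurkb and Incenp in turn. Birc5 was 2.07 to 2.48 times Incenp per length. The log2 fold changes of the 4 ran from -0.02 to 0.11, and 0 had an unadjusted p under 0.05.

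In the spindle checkpoint, both knockdown libraries lay below both controls in 4 of 5 genes, where 16.3% of all genes tested did. By sign alone, 4 of the 6 genes of CDK1 and cyclins were negative, where 4928 of 10900 genes tested were. Among those 4, Ccna2 and Ccnb1 overlapped between groups. Bub1b, which codes for BUBR1, an inhibitor of the APC/C, had 19.9 and 20.3 FPKM in the knockdown libraries against 27.9 and 34.4 in the controls. The groups were well apart, since the lowest control stood above the highest knockdown library by more than the knockdown libraries differed. The log2 fold change was -0.60 ± 0.14 (SE), the lowest unadjusted p of the 40 genes, with a limma adjusted p of 0.566. It was -0.75 to -0.45 with 1 library left out. Bub1b (chromosome 2, 118598211 to 118641591, plus strand, GRCm38) shares 0% of its exonic bases with other annotated genes.

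Bub1, the kinase related to Bub1b, had 16.8 and 16.5 against 17.2 and 21.0 FPKM. Bub3, the WD-repeat partner of both, had 44.0 and 37.7 against 48.7 and 45.6 FPKM, and Ttk, the kinase MPS1 that starts checkpoint signalling, had 5.66 and 4.51 against 7.80 and 6.13. Knockdown lay below control in these 3 genes as well, with log2 fold changes of -0.18, -0.21 and -0.39 and limma adjusted p-values of 0.823, 0.760 and 0.722. With 1 library left out they ranged from -0.32 to -0.044 for Bub1 (the ends without control replicates 1 and 2), -0.31 to -0.096 for Bub3 (without knockdown replicates 1 and 2) and -0.54 to -0.24 for Ttk. Mad2l1, which binds CDC20 when the checkpoint is on, was the exception, at 10.7 and 10.6 against 9.84 and 9.06 FPKM. The 5 checkpoint genes summed to 97.1 and 89.5 FPKM in the knockdown libraries against 111 and 116 in the controls, and Bub1b was the 1 member with an unadjusted p under 0.05.

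Genes of the APC/C step overlapped between groups. Cdc20, the activator of the APC/C and the most abundant of the 40, had 172.5 and 173.7 FPKM in the knockdown libraries against 173.1 and 175.5 in the controls. Its log2 fold change was -0.0097, with an interval of -0.21 to 0.19. Ube2c, the conjugating enzyme of the APC/C, had 39.6 and 45.8 against 45.9 and 45.2 FPKM. Tnnc2, a troponin gene on the opposite strand, overlaps 22.8% of its exonic sequence and stood at 17.5 to 28.7 FPKM, and the kit does not mark strand. Cdca3, a cofactor of ubiquitin ligases at mitotic entry, had 16.8 and 18.4 against 18.6 and 18.05 FPKM.

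The NDC80 complex of the kinetochore binds microtubules, and its subunits Spc25 and Spc24 stood at 39.1 to 43.7 and 31.7 to 36.1 FPKM over the 4 libraries. Nuf2 stood at 14.9 to 19.6 and Ndc80 at 8.98 to 10.8 FPKM. The order Spc25, Spc24, Nuf2 and Ndc80 was the same in all 4 libraries, with 3.63 to 4.87 times between the first and the last. Cenpe, the kinetochore motor, had 6.40 and 5.49 FPKM in the knockdown libraries against 7.41 and 6.499 in the controls, and Cenpf, a large outer kinetochore protein, had 3.26 and 3.45 against 2.74 and 3.09. No kinetochore gene had an unadjusted p under 0.05, and their log2 fold changes ran from -0.20 to 0.16.

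**Figure D3:**
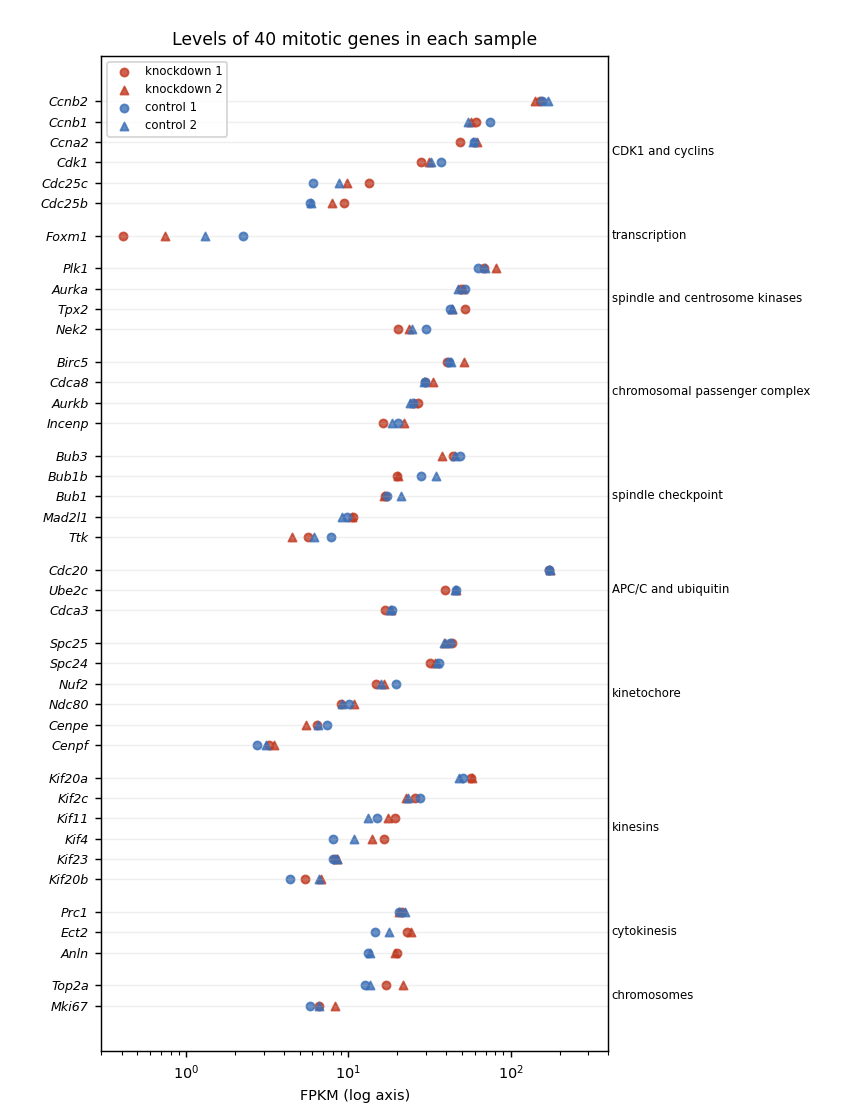
FPKM (horizontal log axis) of each of the 40 genes in each of the 4 libraries (red knockdown, blue control; circles replicate 1, triangles replicate 2), grouped by role and ordered by level within a role. Cdc20 sits at 172.5 to 175.5 FPKM in all libraries and Foxm1 at 0.407 to 2.23, while red and blue separate in Bub1b, Anln, Ect2, Kif4 and Top2a.

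Among the 6 kinesin motors, 3 lay higher in both knockdown libraries, where 22.1% of all genes tested did, and 3 overlapped. Kif4, the chromokinesin KIF4A that organises the midzone and chromosome arms, had 16.5 and 14.0 FPKM in the knockdown libraries against 8.002 and 10.8 in the controls. Its log2 fold change was 0.65 ± 0.19 (SE), the largest positive of the 40, with a limma adjusted p of 0.607, and 0.46 to 0.85 with 1 library left out. Kif4 (chromosome X, 100625737 to 100727214, plus strand) shares 15.1% of its exonic bases with Pdzd11 on the opposite strand, which had 58.6 and 53.0 against 55.2 and 50.9 FPKM. Kif11, the motor EG5 that separates spindle poles, had 19.4 and 17.6 against 15.1 and 13.2 FPKM, a log2 fold change of 0.37 ± 0.14 (SE) with a limma adjusted p of 0.692.

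Kif20a, a motor of cytokinesis that carries the passenger complex, was the most abundant kinesin, at 56.6 and 57.8 against 50.5 and 47.9 FPKM. Knockdown lay above control, with a log2 fold change of 0.21 (interval -0.03 to 0.46), and Cdc23, on the opposite strand, overlaps 29.3% of its exonic sequence. Kif20b had 5.39 and 6.80 against 4.39 and 6.62 FPKM. The centralspindlin motor Kif23 had 8.25 and 8.47 against 8.03 and 8.55, and the microtubule depolymerase Kif2c had 25.8 and 22.5 against 27.5 and 23.3. These last 3 overlapped between groups. The 6 motors summed to 132 and 127 FPKM in the knockdown libraries against 114 and 110 in the controls.

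Of the 3 cytokinesis genes, 2 lay higher in both knockdown libraries, where 22.1% of all genes tested did. Anln, anillin, the actin and septin scaffold of the cleavage furrow, had 19.9 and 19.3 FPKM in the knockdown libraries against 13.3 and 13.6 in the controls. Its groups lay far apart relative to their spread, with a log2 fold change of 0.51 ± 0.13 (SE), a limma adjusted p of 0.582, and 0.49 to 0.54 with 1 library left out. Ect2, the exchange factor that activates RhoA at the furrow, had 22.99 and 24.3 against 14.5 and 17.7 FPKM, a log2 fold change of 0.53 ± 0.15 (SE) with a limma adjusted p of 0.607. Prc1, which bundles midzone microtubules, had 21.5 and 20.5 against 20.6 and 22.2 FPKM and overlapped.

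Of the chromosome genes, Top2a, topoisomerase II alpha that untangles sister chromatids, had 17.1 and 21.7 FPKM in the knockdown libraries against 12.7 and 13.5 in the controls. The log2 fold change was 0.53 ± 0.16 (SE) with a limma adjusted p of 0.627, and 0.36 to 0.69 with 1 library left out. Mki67, the proliferation marker Ki-67 that coats mitotic chromosomes, had 6.58 and 8.28 against 5.78 and 6.57 FPKM. Its knockdown values lay just above control, with a log2 fold change of 0.23 and an interval of -0.23 to 0.69. That value was 0.083 without knockdown replicate 2, 0.15 without control replicate 1 and 0.37 without knockdown replicate 1.

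**Figure D4:**
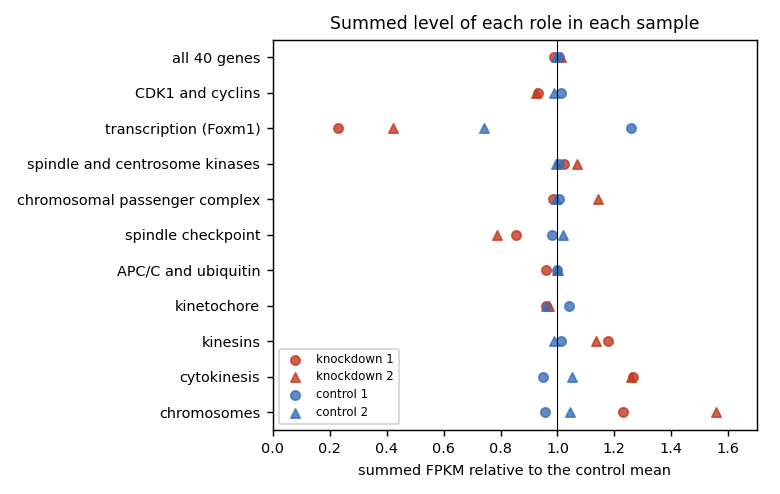
Summed FPKM of all 40 genes and of each role in each library, divided by the control mean of that role (horizontal axis from 0; red knockdown, blue control; circles replicate 1, triangles replicate 2). The sum of all 40 sits at 1. Both knockdown sums lie below both controls for CDK1 and cyclins, Foxm1 and the spindle checkpoint. They lie above for the spindle and centrosome kinases, kinesins, cytokinesis and chromosome genes, and the other roles overlap. Sums weigh abundant genes most and were not set beside sums of other gene sets. Taken singly, 0 of the 4 spindle and centrosome kinase genes lay above, 1 lay below and 3 overlapped. Of the 6 genes of CDK1 and cyclins, 2 lay above, 2 below and 2 overlapped.

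The knockdown libraries were compared member by member. Relative to the control mean, both lay above in 15 genes, both below in 13 and on opposite sides in 12. Knockdown replicate 1 alone was above in 18 of 40 and knockdown replicate 2 in 24. The median deviations were -0.010 and 0.029, where those over all genes tested were 0.0077 and 0.054. Knockdown replicate 2 thus stood higher over the whole table as well. The counts in this paragraph were not made over all genes tested. The means of knockdown and control were within 1.5-fold of each other for 36 of the 40 genes, and 37 of the 95% intervals lay within -1 to 1 on the log2 scale.

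**Figure D5:**
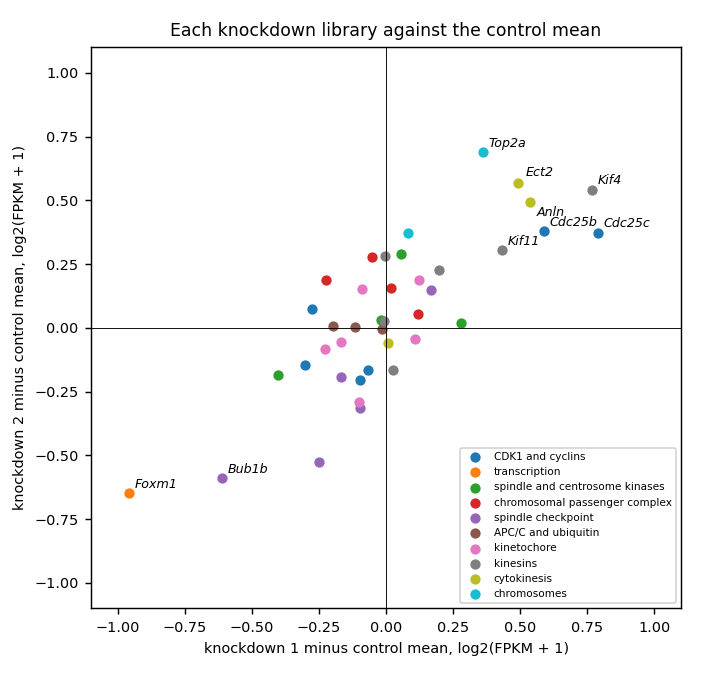
Each point is 1 of the 40 genes, with the difference from the control mean in log2(FPKM + 1) for knockdown replicate 1 (horizontal axis) and knockdown replicate 2 (vertical axis), coloured by role; named points had an unadjusted p under 0.05. The axes share the control libraries, so points can lie on a diagonal through the controls alone. Most points lie near 0. The 9 named genes lie outward in both libraries, which follows from naming them by p in these same libraries.

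Transcript length moved with these values. Over the 10896 genes with a length, the median log2 fold change was 0.096 for the 3241 whose longest transcript exceeds 4000 bases, 0.014 for those of 2000 to 4000 bases and -0.0073 for shorter ones. Of the 40 genes, 14 exceed 4000 bases, with a median of 0.16, 10 of them positive, and 6 of the 9 with an unadjusted p under 0.05 are among them. Smooth trends of each library on length and GC content were then removed, an alternative chosen after seeing the data. The count of 9 became 8, where 7.19% of all genes had an unadjusted p under 0.05 by limma. Kif11, with a log2 fold change of 0.27, was the gene that left the count. Anln had 0.43, Ect2 0.45, Top2a 0.42 and Bub1b -0.64. Smaller values of long genes lost more: Mki67 went from 0.23 to 0.10, Mad2l1 from 0.16 to 0.0365, Cenpf from 0.16 to 0.023 and Kif20b from 0.14 to 0.025. Levels also went with length, with a Spearman correlation of -0.61 between mean FPKM and longest transcript over the 40 genes, which share the 4 libraries. The part of length in the differences was not tested beyond this.

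Other genes of the pathway were listed by role and not by how they moved. Of 93 further mitotic genes, 89 were tested, 64 had a positive and 25 a negative log2 fold change, where 5972 and 4928 of all genes tested did, and the median was 0.09. None passed the adjusted threshold by limma, and at an unadjusted p under 0.05 there were 2 higher and 0 lower, where all genes gave 4.39% and 2.7%. Those were Smc4, a condensin subunit, at 31.7 and 37.9 against 25.8 and 27.0 FPKM, and Anapc1, the largest APC/C subunit, at 4.26 and 4.004 against 2.87 and 2.18. Among 22 regulators of the DREAM and E2F system, 21 were tested, 12 were positive and 9 negative, and 0 passed the adjusted threshold by limma. At an unadjusted p under 0.05 by limma, 1 was higher and 2 were lower, against 4.39% and 2.7% of all genes. Those with the lowest unadjusted p were the repressor E2f8, at 16.8 and 18.2 against 24.2 and 22.1 FPKM, and the dimerisation partner Tfdp2, at 2.69 and 2.67 against 3.93 and 5.03.

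The 48 DNA replication and G1/S genes had 29 positive and 19 negative log2 fold changes with a median of 0.06, and 0 passed the adjusted threshold, with 2 higher and 1 lower by limma at an unadjusted p under 0.05, counts near the shares of all genes (4.39% and 2.7%). The median turned to -0.0056 without knockdown replicate 2 and -0.0062 without control replicate 1. The members with the lowest unadjusted p went opposite ways. One was Orc1, a subunit of the origin recognition complex, at 4.59 and 3.31 against 2.32 and 1.32 FPKM, a log2 fold change of 0.82 with a limma adjusted p of 0.640. The other was Gins1, a subunit of the replicative helicase complex, at 4.47 and 3.87 against 11.2 and 8.34 FPKM, a log2 fold change of -1.05 with a limma adjusted p of 0.523. Cyclins D, their kinases and CDK inhibitors had 9 of 12 members tested, with a median of 0.08 and 0 calls. The median was 0.0012 if control replicate 1 was left out, and -0.068 if knockdown replicate 2 was. Against 4.39% and 2.7% of all genes, 0 of these were higher and 1 was lower by limma at an unadjusted p under 0.05. That 1 was Cdkn1a, the inhibitor p21, at 384 and 347 FPKM against 472 and 459. Markers of satellite cells and myoblasts had 6 of 8 tested members negative and a median of -0.15, which was -0.0081 without knockdown replicate 1 and -0.28 without knockdown replicate 2. They summed to 4440 and 4050 FPKM against 5444 and 5165, mostly from Myog. Markers of smooth muscle and pericytes, mostly Acta2, which myoblasts also express, summed to 2673 and 2579 against 3169 and 3026, and fibro-adipogenic markers to 77.4 and 67.1 against 79.97 and 88.9. Within the fibro-adipogenic list, Cd34 stood higher, at 4.53 and 4.62 against 1.37 and 1.17 FPKM. Islr stood lower, at 42.1 and 30.6 against 51.2 and 58.5 FPKM. Their log2 fold changes were 1.3 and -0.59, with limma adjusted p-values of 0.265 and 0.607. Pdgfra was listed at 0 in 3 of 4 libraries. Endothelial markers summed to at most 2.74 FPKM, macrophage markers to 1.37 and Schwann cell markers to 1.40. The part of these marker differences in the values of single mitotic genes was not tested.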

How the data were processed

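Polyadenylated RNA of 4 samples was sequenced. The deposited table gives FPKM for each gene in each library; that the values are FPKM was inferred from their steps and column sums. Per the submitters' processing notes, StringTie 1.3.3, HISAT2 2.1.0, SAMtools 1.3, Trimmomatic 0.36 and bcl2fastq 2.19 were used, with mm10, but no roles are listed. The annotation and the strand setting were not given in the sources used here. Depth was read from genes with 1 exon and 1 transcript, where FPKM multiplied by length gave multiples of a fixed step (tolerance 0.1) for 87.4% to 88.1% of 3233 to 3468 values, where even spacing gives 20.0%. No count model was used.

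Log2(FPKM + 1) was fitted for the 10900 genes averaging 1 FPKM or more by limma 3.58.1 (R 4.3.3; trended prior variance), knockdown minus control, two-sided, with Benjamini-Hochberg adjustment over all 10900 and a threshold of 0.05. Such fold changes understate the change of low genes. The labels do not say whether replicates were grown or taken separately; p-values rest on sample-to-sample spread that could be technical only. With 2 against 2 samples, an exact permutation test of a sum cannot go below 0.33, and sums are given without a test. The fit was checked on simulated data for 10900 genes in 20 runs. It recovered 7% of 1.5-fold, 42.4% of 2-fold, 92.7% of 4-fold and 98.2% of 8-fold changes. Of its calls, 4.95% were false. Changes of 1.5-fold were thus mostly missed, and an absence of calls does not show that such changes were absent. Coordinates, lengths and shared exons came from GENCODE M21 on GRCm38, promoters from RefSeq. Python 3.11.15, numpy 2.4.6, pandas 2.3.3 and matplotlib 3.10.9 were used.

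The members and lists were chosen with earlier results of these data known. The naming rule took members with an unadjusted p under 0.05 and, per role, the 2 most abundant and the 1 with the lowest p, 26 in all; the other members were added after their values were seen. Alternatives were a replicate block, 3 scalings, a pseudocount of 0.1, no filter or one at 5 FPKM, no trend, and each library left out.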

Additional observations from a re-analysis of the deposited data

How the results depend on the processing

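None of the 40 genes passed the adjusted threshold under any alternative run. The replicate number shared by the titles was checked: same-numbered samples had a correlation of deviations from the group means of -0.021. With 2 samples per group, this value cannot tell whether same-numbered samples were taken or handled together. With a replicate block, 3 genes of all tested were called instead of 6. At an unadjusted p under 0.05 by limma there were 7 of the 40 instead of 9, where 6.51% of all genes passed instead of 7.08%. Without the filter on low values 0 genes of all tested were called by limma, with 1508 at an unadjusted p under 0.05, and with 1 library left out 5 to 15, the 15 without knockdown replicate 1. The median log2 fold change of the 40 was -0.020 with median ratio scaling, -0.021 with length and GC trends removed, and -0.011 to 0.056 with 1 library left out. The ratio of their sums, knockdown to control, was 0.979 with median ratio scaling, against 1.00, and 0.989 to 1.01 with 1 library left out.

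Genes near 0 changed sign. Aurka had -0.024 with median ratio scaling. Cdc20 had 0.033 with quantile normalization and 0.0049 when rescaled to TPM. Ndc80 had -0.017 with quantile normalization and -0.036 with length and GC trends removed. Kif23 had -0.042, -0.016 and -0.026 with quantile normalization, median ratio scaling and those trends removed. With 1 library left out the ranges were -0.28 to 0.075 for Ccna2, -0.35 to 0.11 for Ccnb1, -0.059 to 0.070 for Aurka, -0.22 to 0.19 for Incenp, -0.053 to 0.28 for Birc5, -0.019 to 5.2e-05 for Cdc20, -0.20 to 0.0067 for Ube2c, -0.12 to 0.0043 for Cdca3, -0.092 to 0.15 for Ndc80, -0.044 to 0.11 for Spc25, -0.11 to 0.39 for Kif20b, -0.030 to 0.051 for Kif23, -0.18 to 0.043 for Kif2c and -0.077 to 0.026 for Prc1. Among genes that kept their sign, the ranges were -0.32 to -0.13 for Cdk1, -0.44 to -0.16 for Nek2, 0.057 to 0.29 for Plk1, 0.019 to 0.28 for Tpx2, -0.29 to -0.10 for Cenpe and -0.30 to -0.0092 for Nuf2. The cause was not tested. The median half-width of the 95% interval of the 40 was 0.35, and no gene with a larger fold change passed the adjusted threshold either.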
